A study of Homo sapiens with 6 samples.

Results

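The enzymes that make serine and carry its carbon units on folate were followed in newly synthesized and in total mRNA of MOLM-13 cells given the acetyltransferase inhibitor C646. They were taken by symbol through their Entrez identifiers: PHGDH, PSAT1, PSPH, SHMT1, SHMT2, MTHFD1, MTHFD2, MTHFD1L and TYMS. These are 9 of the 25420 genes measured and hold 12 of the 58136 annotated 3′ UTR entries. MOLM-13 is an established human acute myeloid leukaemia cell line with a KMT2A-AF9 fusion and an internal tandem duplication in FLT3. Cells were kept for 2 h in 10 µM C646, an inhibitor of the lysine acetyltransferases CBP and p300, or in the vehicle DMSO. All 6 libraries, 3 of each group, came from cells labelled with 100 µM 4-thiouridine (4sU) throughout the final 1 h. In SLAM-seq, RNA that has taken up 4sU is alkylated and then shows C where the genome has T, and a read with at least 1 such conversion (T > C read) is counted as newly synthesized.

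Serine is built from the glycolytic intermediate 3-phosphoglycerate by PHGDH, PSAT1 and PSPH, in this order. The serine hydroxymethyltransferases, SHMT1 in the cytosol and SHMT2 in mitochondria, split serine into glycine and a carbon unit bound to tetrahydrofolate. In mitochondria, MTHFD2 oxidises this unit and MTHFD1L releases it as formate, which leaves for the cytosol. There MTHFD1 loads it on folate again, and TYMS uses the folate-bound unit to make thymidylate for DNA. Proliferating leukaemia cells draw on this pathway for purines and thymidylate, and TYMS and the folate cycle around it are the targets of antifolate drugs.

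The members did not move together. In newly synthesized RNA, MTHFD1 and TYMS, which use folate in the cytosol, fell to 0.194 and 0.251 of their DMSO level, and these calls held without any 1 library. Mitochondrial MTHFD1L, at 0.529 and near the median of all genes, passed as well, but the call was lost without most single libraries and when the T > C reads were scaled to their own totals in place of all reads (by TMM). PSAT1 rose 1.87-fold in the same reads, a call that was lost without DMSO replicate 2. PHGDH, PSPH, SHMT2 and MTHFD2 did not pass the test in T > C reads, while in all reads MTHFD2 rose 1.48-fold. The call of MTHFD2 was lost without any 1 DMSO library or C646 replicate 2. PHGDH passed as lower in all reads without C646 replicate 1, with no filter on low counts and with a block for the replicate number. SHMT1 had no read in any library.

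The promoters of the 5 members that passed a test are given here, since they are the stretches of DNA nearest to the transcription that the T > C reads follow. They are 250 bases before to 50 after the start in RefSeq (GRCh38.p14), 5′ to 3′ on the + strand, with every match to 4 short motifs in capitals, none of which overlap. These motifs are the CCAAT box (CCAAT), the E-box of MYC and MAX (CACGTG), the E2F motif (TTTGGCGC or TTTCCCGC) and the C/EBP-ATF response element of ATF4 (TGATGNAA), each searched on both strands. The order is PSAT1 (chr9:78296875-78297174), MTHFD2 (chr2:74198365-74198664), MTHFD1L (chr6:150866236-150866535, the first of 4 listed starts), MTHFD1 (chr14:64388103-64388402) and TYMS (chr18:657403-657702).
PSAT1: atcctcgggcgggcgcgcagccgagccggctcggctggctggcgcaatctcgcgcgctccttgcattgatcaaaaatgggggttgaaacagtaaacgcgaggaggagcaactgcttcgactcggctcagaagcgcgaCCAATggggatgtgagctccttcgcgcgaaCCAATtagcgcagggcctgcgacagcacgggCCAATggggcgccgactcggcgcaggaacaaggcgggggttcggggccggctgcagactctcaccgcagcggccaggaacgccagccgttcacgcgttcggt
MTHFD2: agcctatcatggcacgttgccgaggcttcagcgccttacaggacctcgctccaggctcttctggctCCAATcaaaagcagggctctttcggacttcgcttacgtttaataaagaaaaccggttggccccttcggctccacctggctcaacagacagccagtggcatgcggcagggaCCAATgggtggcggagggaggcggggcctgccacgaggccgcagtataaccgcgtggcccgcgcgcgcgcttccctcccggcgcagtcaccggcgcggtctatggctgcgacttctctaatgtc
MTHFD1L: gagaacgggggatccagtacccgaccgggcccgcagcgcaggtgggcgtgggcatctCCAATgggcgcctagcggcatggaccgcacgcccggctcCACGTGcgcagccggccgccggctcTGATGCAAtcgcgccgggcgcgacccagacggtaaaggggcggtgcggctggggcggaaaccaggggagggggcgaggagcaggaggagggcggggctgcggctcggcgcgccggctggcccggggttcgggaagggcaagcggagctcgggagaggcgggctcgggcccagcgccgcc
MTHFD1: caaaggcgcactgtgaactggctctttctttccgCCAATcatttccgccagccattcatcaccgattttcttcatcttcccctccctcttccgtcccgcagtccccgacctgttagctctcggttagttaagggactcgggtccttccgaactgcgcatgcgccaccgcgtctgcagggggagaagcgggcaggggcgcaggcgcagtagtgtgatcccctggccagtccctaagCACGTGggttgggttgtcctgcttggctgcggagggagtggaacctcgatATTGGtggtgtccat
TYMS: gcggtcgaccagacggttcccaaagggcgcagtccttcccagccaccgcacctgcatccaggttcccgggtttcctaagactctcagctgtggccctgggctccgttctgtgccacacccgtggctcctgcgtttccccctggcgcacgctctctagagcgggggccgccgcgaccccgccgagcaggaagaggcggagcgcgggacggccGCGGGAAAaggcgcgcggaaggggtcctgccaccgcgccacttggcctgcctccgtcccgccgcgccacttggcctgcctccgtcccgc

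The PSAT1 promoter held 3 CCAAT boxes, which start 113, 83 and 52 bases before the transcription start. Among all 35116 RefSeq promoters of this length, 34.6% held at least 1 CCAAT box and 3.26% held 3 or more. MTHFD2 had 2 of them and MTHFD1 had 2, of which 1 was on the other strand and after the start. SHMT1 had 2 as well, PHGDH and MTHFD1L had 1 each, and TYMS had none. The only ATF4 element lay in MTHFD1L, with its first base 129 bases before the start printed here, a motif found in 3.62% of all promoters. The same element lay 90 bases before another listed start of MTHFD1L and 24 bases after a further one, and the window of the fourth start held no match to any motif. MTHFD1L and MTHFD1 had the E-box, which 7.26% of the promoters had. TYMS had the only E2F motif, on the strand opposite to the gene and 39 bases before the start, where 2.27% of all promoters held a match. The heat shock element was searched as well and matched in 0.490% of the promoters but in no member. RefSeq promoters were matched for 7 of the 9 members, and PSPH and SHMT2 were not among them. These matches describe the letters of the windows and say nothing on binding.

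Between 7252597 and 10225448 reads per library lay on 3′ UTRs, of which 8.74% to 8.86% were T > C reads in DMSO and 6.34% to 6.71% in C646. The members rested on 8 to 437 T > C reads and on 390 to 2717 reads in all per library and gene, SHMT1 left aside. Intervals and floors cover counting error only, since PCR copies of a molecule are counted as separate reads. The sources used here do not say whether the 3 replicates were separate cultures, so that p-values measure the spread between these libraries, which may be technical. As in any bulk sample, fewer cells of a kind and less RNA per cell cannot be told apart. The 7 myeloid markers summed to 3305 to 3723 CPM of all reads per library, that is, reads per 1000000 of the TMM-scaled library total, and 6 markers of other cell types to 1.35 to 10.0 CPM, with CD3E and HBB at 0. No unlabelled library was analysed here, so that T > C reads from sequencing errors were not measured.

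Most genes lost newly synthesized RNA, and each change of a member stands beside that. Over 7722 genes tested, the change in T > C reads (C646 against DMSO, log2) had a median of −0.83, while the 8 members tested had a median of −0.26, with 5 of them below 0. At an adjusted p of at most 0.01 (quasi-likelihood test of edgeR, Benjamini-Hochberg adjusted over all genes tested), which is what passing means below, 3 of 8 members were lower in C646 and 1 was higher. Of all genes tested, 38% were lower and 3.83% higher by the same rule. The share of members that were lower was thus near that of all genes. With a log2 fold change of at least 1 in size required as well, 2 members were lower, MTHFD1 and TYMS, beside 33% of all genes, and the threshold left out PSAT1 (2.97% of all genes were higher). Taken by library, 4 members were lower in every C646 library than in any DMSO library (PHGDH, MTHFD1L, MTHFD1 and TYMS), beside 55.8% of all genes, and 2 were higher (PSAT1 and MTHFD2), beside 6.46%. The T > C reads were scaled by all reads of a library, and scaling them by TMM on the T > C reads themselves moved the log2 fold change of a gene by a median of 0.84. On that scale 2 members passed as lower, MTHFD1 and TYMS, and 3 as higher, PSAT1, SHMT2 and MTHFD2, beside 9.21% and 11.5% of all genes.

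**Figure D1:**
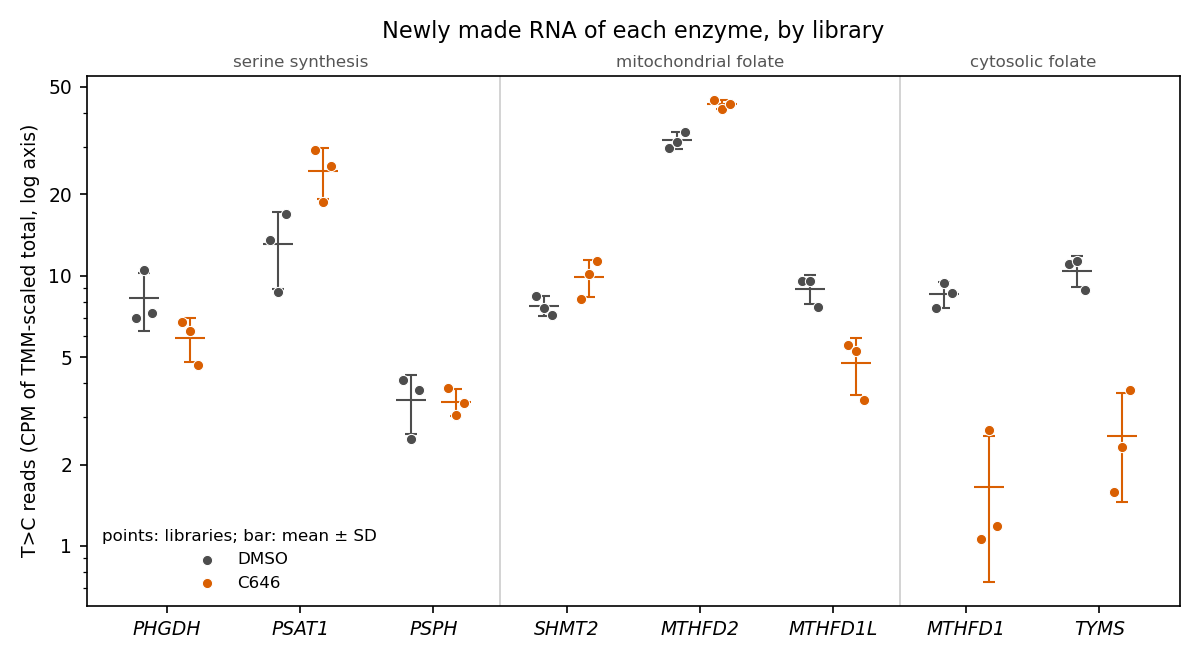
T > C reads of each enzyme in CPM of the TMM-scaled library total (log axis), with a point for each of the 3 DMSO and 3 C646 libraries and a bar for the mean ± SD. All C646 libraries of MTHFD1 (1.06 to 2.70 CPM) and TYMS (1.59 to 3.77 CPM) lie below all DMSO libraries, and those of PSAT1 (18.7 to 29.2 CPM) and MTHFD2 (41.4 to 44.7 CPM) lie above. SHMT1, with no reads, is not drawn.

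Of the serine synthesis enzymes, PHGDH, which takes the first and committed step, had 6.96, 10.5 and 7.27 CPM of T > C reads in DMSO replicates 1, 2 and 3 and 6.74, 6.25 and 4.66 CPM in C646 replicates 1, 2 and 3. The groups did not overlap, but by a narrow gap, and the log2 fold change of −0.49 ± 0.28 (SE) did not pass the test (edgeR, adjusted p = 0.140) and turned to 0.36 under TMM on the T > C reads. On the main scale 65.7% of all genes lay lower than PHGDH. In all reads PHGDH had 117, 154 and 104 CPM in DMSO and 105, 78.2 and 56.8 CPM in C646. Here the groups overlapped by C646 replicate 1, with a log2 fold change of −0.64 ± 0.20 (edgeR, adjusted p = 0.0258). Without C646 replicate 1 it was −0.88 and passed (edgeR, adjusted p = 0.00416). PHGDH was measured on a short 3′ UTR entry of 186 bases with 43 T (chr1:119744041-119744226, + strand), and its T > C reads carried 1.78 ± 0.0484 conversions in DMSO and 1.39 ± 0.118 in C646 (SD, n = 3 each).

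PSAT1, the aminotransferase of the second step, had 13.6, 8.73 and 16.97 CPM of T > C reads in the DMSO libraries. In the C646 libraries it had 29.2, 18.7 and 25.6 CPM. Every C646 library lay above every DMSO library, although DMSO replicate 2 was low and the lowest C646 value was close to the highest DMSO value. The log2 fold change was 0.90 ± 0.23 (edgeR, adjusted p = 0.00134), higher than that of 95.2% of all genes. Without DMSO replicate 2 it was 0.68 and no longer passed (edgeR, adjusted p = 0.0188). Scaled by TMM on the T > C reads, with all libraries, it was 1.74 (edgeR, adjusted p = 3.89e-07). In all reads PSAT1 had 136, 81.4 and 129 CPM in DMSO and 149.6, 122 and 142 CPM in C646, so that the groups overlapped, with a log2 fold change of 0.26 ± 0.18 (edgeR, adjusted p = 0.286). All of its reads came from 1 entry of 1007 bases with 362 T (chr9:78329087-78330093, + strand).

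PSPH, the phosphatase that releases serine, had 18 to 39 T > C reads per library. Its T > C reads stood at 4.11, 2.495 and 3.77 CPM in DMSO and at 3.84, 3.06 and 3.37 CPM in C646, with the C646 libraries inside the range of the DMSO libraries. The log2 fold change was −0.02 ± 0.38 in T > C reads (edgeR, adjusted p = 0.961) and −0.02 ± 0.14 in all reads (edgeR, adjusted p = 0.936). With 82.2% of all genes lower than PSPH, a value near 0 was high in the distribution of T > C changes, but the standard error does not tell a moderate rise or fall from none. Its sign turned to 0.82 under TMM on the T > C reads.

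Of the enzymes of mitochondrial folate metabolism, SHMT2, which yields glycine and the folate-bound carbon unit, had 8.43, 7.62 and 7.14 CPM of T > C reads in DMSO and 8.20, 10.2 and 11.3 CPM in C646. The lowest C646 library lay inside the DMSO range and the other C646 libraries above it. The log2 fold change of 0.36 ± 0.25 did not pass the test (edgeR, adjusted p = 0.221). It passed only when scaled by TMM on the T > C reads, with 1.20 (edgeR, adjusted p = 0.000255). In all reads SHMT2 had 137 to 157 CPM in DMSO and 140.1 to 160.3 CPM in C646, a log2 fold change of 0.09 ± 0.13. Its entry (chr12:57234362-57234935, + strand) overlaps an entry of COXFA4L2 on the other strand.

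MTHFD2, the mitochondrial dehydrogenase and cyclohydrolase that is known for its high level in many cancers, had the most T > C reads of the members in every library, with 226 to 437. It had 29.6, 31.3 and 34.2 CPM of T > C reads in DMSO and 44.7, 41.4 and 43.4 CPM in C646. Although the groups did not overlap, the log2 fold change of 0.45 ± 0.16 missed the threshold (edgeR, adjusted p = 0.0230), with 91.3% of all genes lower. It passed when scaled by TMM on the T > C reads, with 1.29 (edgeR, adjusted p = 3.56e-07), and by the totals of all filtered reads, with 0.65 (edgeR, adjusted p = 0.00251).

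In all reads MTHFD2 had 184, 167 and 189 CPM in DMSO and 256, 273 and 269.5 CPM in C646. The groups stood well apart, and MTHFD2 rose by a log2 fold change of 0.56 ± 0.12 (edgeR, adjusted p = 0.00408). Of 8 members, 1 was thus higher in all reads, beside 9.81% of all genes. In the main edgeR fit no member was lower at the adjusted threshold, beside 6.28% of all genes, and none was with DESeq2's Wald test. In the main fit 1 member, PHGDH, was lower at an unadjusted p under 0.05. PHGDH passed as lower in edgeR with no filter on low counts (adjusted p = 0.000381) and with a block for the replicate number (adjusted p = 0.000559). It also passed without C646 replicate 1, as given above. The rise of MTHFD2 in all reads moved little without any 1 library, between 0.51 and 0.60, but leaving out a DMSO library or C646 replicate 2 took the adjusted p past the threshold, to between 0.0118 and 0.0301 (edgeR). The reads lay on 1 entry of 1055 bases (chr2:74214243-74215297, + strand).

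MTHFD1L, the mitochondrial formyltetrahydrofolate synthetase that releases formate, had 9.59, 9.57 and 7.67 CPM of T > C reads in DMSO and 5.55, 5.27 and 3.47 CPM in C646. All C646 libraries were below all DMSO libraries, and MTHFD1L fell by a log2 fold change of −0.92 ± 0.29 (edgeR, adjusted p = 0.00768). This is close to the median of all genes, with 45.9% of them lower, and was −0.07 when scaled by TMM on the T > C reads. The call was also lost on the entry with the most reads (−0.51, edgeR, adjusted p = 0.194), under DESeq2's Wald test (adjusted p = 0.0102), with the totals of all filtered reads (edgeR, adjusted p = 0.0421) and without any 1 library other than C646 replicate 1, with adjusted p between 0.0129 and 0.0405. In all reads the groups overlapped, at 90.5, 90.9 and 73.5 CPM in DMSO and 66.3, 75.7 and 74.5 CPM in C646, and the log2 fold change was −0.24 ± 0.14 (edgeR, adjusted p = 0.218).

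MTHFD1L was the only member with many reads on more than 1 3′ UTR. A proximal entry of 94 bases (chr6:150898908-150899001, + strand) belongs to the short transcript MTHFD1L-201 in GENCODE release 44 and lies in no exon of the canonical transcript. The distal entry of 362 bases (chr6:151101526-151101887) ends 202886 bases further on, at the end of the full-length transcripts. The proximal entry took 34.3%, 44.2% and 40.8% of all MTHFD1L reads in DMSO and 25.9%, 26.1% and 25.4% in C646. The C646 libraries were alike and all below the DMSO libraries, with a difference of −13.99 percentage points (two-sided exact permutation test, p = 0.1, and 3 libraries against 3 cannot go lower). This split of the reads by entry was chosen after seeing the data. How many other genes with more than 1 entry shifted in this way is not given here.

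In T > C reads the proximal share was 33.0%, 36.2% and 47.4% in DMSO and 26.2%, 13.95% and 11.4% in C646 (two-sided exact permutation test, p = 0.1), on 25 to 30 proximal T > C reads per DMSO library and 4 to 11 per C646 library. Fitted as features of their own, an analysis chosen after seeing the data, the proximal entry fell by a log2 fold change of −2.00 ± 0.53 in T > C reads (edgeR, adjusted p = 0.00245). The distal entry had −0.50 ± 0.33 and did not pass (edgeR, adjusted p = 0.208). By this test 36.2% of all 7871 entries were lower in T > C reads. In all reads the proximal entry fell by −0.84 ± 0.18 (edgeR, adjusted p = 0.00400), beside 5.11% of entries lower, and the distal entry had 0.07 ± 0.16 (edgeR, adjusted p = 0.764). Full-length MTHFD1L mRNA, as the distal entry measures it, therefore did not pass in either kind of read.

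**Figure D2:**
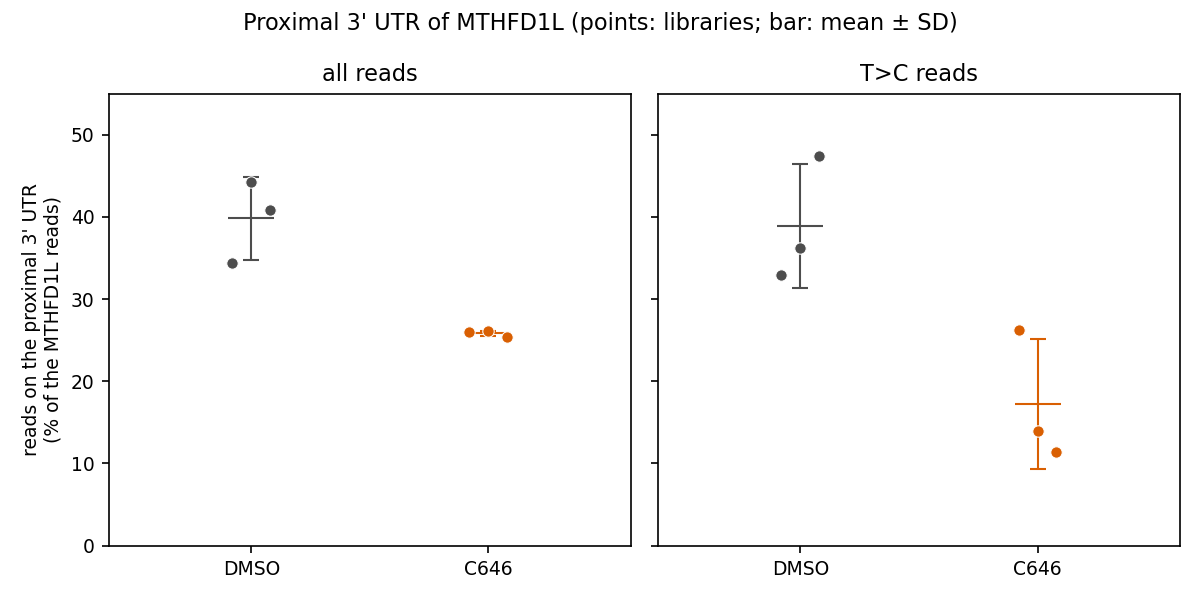
Share of the MTHFD1L reads that lie on the proximal 3′ UTR, in percent, for all reads (left) and T > C reads (right), with a point for each library and a bar for the mean ± SD of 3 libraries. In all reads the share was 39.8% ± 5.01 in DMSO and 25.8% ± 0.332 in C646, and in T > C reads 38.9% ± 7.55 and 17.2% ± 7.90. The comparison was chosen after seeing the data.

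Of the enzymes of cytosolic folate metabolism, SHMT1 had 0 reads in all 6 libraries on its 1 entry of 890 bases (chr17:18327860-18328749, − strand). A count of 0 allows up to 3 reads, which is 0.298 to 0.416 CPM depending on the library. The mitochondrial isoenzyme SHMT2 stood at 137 CPM or more of all reads in every library. SHMT1 could therefore not be tested, and a ratio of SHMT2 to SHMT1 was not computed. What an unlisted 3′ end of SHMT1 would give is not covered by this entry.

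MTHFD1, the trifunctional enzyme that reloads formate on folate in the cytosol, had 7.59, 9.43 and 8.62 CPM of T > C reads in DMSO and 1.06, 2.70 and 1.19 CPM in C646. The highest C646 library lay far below the lowest DMSO library. MTHFD1 fell by a log2 fold change of −2.37 ± 0.37 (edgeR, adjusted p = 4.16e-06), which is 5.17-fold, and 6.59% of all genes fell lower. The change ranged from −2.90 to −2.15 without any 1 library and was −1.53 under TMM on the T > C reads (edgeR, adjusted p = 0.00210). C646 replicate 1 held 8 T > C reads among 1154 reads of MTHFD1, a share of 0.693% with a 95% Wilson interval of 0.352% to 1.36%.

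In all reads MTHFD1 stood at 208, 216 and 188 CPM in DMSO and at 153, 161 and 209 CPM in C646. The groups overlapped, since C646 replicate 3 was as high as the DMSO libraries, and the log2 fold change of −0.23 ± 0.15 did not pass (edgeR, adjusted p = 0.251). Of its reads, 99.4% came from an entry of 249 bases (chr14:64459759-64460007, + strand) and the rest from an entry of 4 bases without T.

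TYMS, which makes thymidylate and is the target of fluorouracil, had 11.1, 11.4 and 8.89 CPM of T > C reads in DMSO and 1.59, 2.33 and 3.77 CPM in C646. As for MTHFD1, the groups were far apart. TYMS fell by a log2 fold change of −1.99 ± 0.32 (edgeR, adjusted p = 6.79e-06), which is 3.98-fold, and 11.8% of all genes fell lower. Without any 1 library the change was −2.40 to −1.75, and under T > C TMM scaling it was −1.16 (edgeR, adjusted p = 0.00528). In all reads TYMS had 190.0, 184 and 169.8 CPM in DMSO and 198, 173 and 209.7 CPM in C646, with overlapping groups and a log2 fold change of 0.10 ± 0.13 (edgeR, adjusted p = 0.604). Its entry (chr18:672998-673499, + strand) overlaps an entry of ENOSF1 on the other strand. For every member with reads, multimapped reads made up at most 0.676% of the reads in any library.

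**Figure D3:**
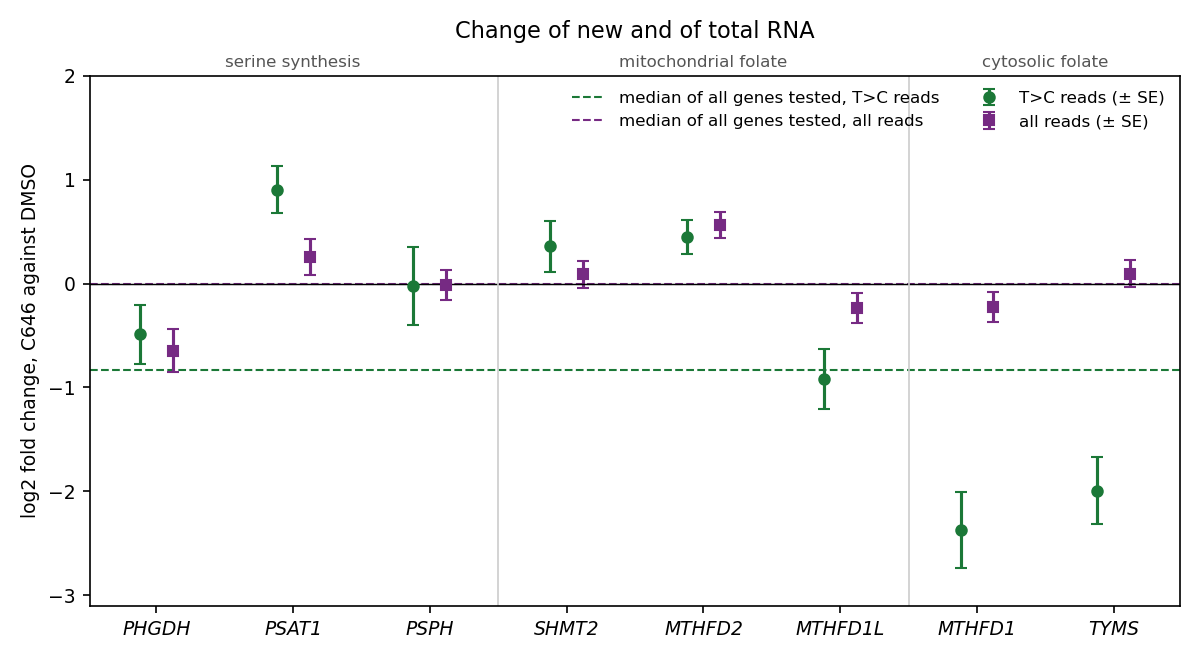
Log2 fold change (C646 against DMSO) ± SE of each enzyme in T > C reads and in all reads, 3 libraries per group, with dashed lines at the medians of all genes tested, −0.83 for T > C reads and −0.0030 for all reads. MTHFD1 and TYMS lie at −2.37 and −1.99 in T > C reads but at −0.23 and 0.10 in all reads, and MTHFD2 at 0.45 and 0.56.

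The T > C share of a gene sets its T > C reads against its other reads within a library and needs no scaling between libraries. In DMSO, MTHFD2 (17.6% ± 1.39, SD, n = 3) was the only member above the median share of all genes, 13.3%. The share of PSAT1 was 10.0%, 10.7% and 13.2% in DMSO and 19.5%, 15.4% and 18.03% in C646, above the DMSO libraries in each C646 library. MTHFD1 went from 3.65%, 4.36% and 4.59% to 0.693%, 1.67% and 0.570%. TYMS went from 5.82%, 6.18% and 5.23% to 0.800%, 1.34% and 1.80%. Shares that did not overlap between the groups were lower in C646 for 3 of 8 members, beside 64.6% of all genes, and higher for 1, beside 2.17%. The share of MTHFD1L went from 10.5% ± 0.0771 to 6.67% ± 1.88, also without overlap. Overlapping shares went from 17.6% ± 1.39 to 16.2% ± 1.16 for MTHFD2 and from 6.59% ± 0.564 to 7.53% ± 0.987 for PHGDH.

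In the model of these odds, the T > C odds of MTHFD1 and TYMS fell by log2 fold changes of −2.20 ± 0.31 and −2.16 ± 0.26 (edgeR, adjusted p = 3.11e-06 and 3.91e-07). Those of PSAT1 rose by 0.75 ± 0.22 (edgeR, adjusted p = 0.00494). MTHFD1L had −0.76 ± 0.28 and did not pass (edgeR, adjusted p = 0.0224), except without C646 replicate 1 (−0.95, edgeR, adjusted p = 0.00915). Thus 2 of 8 members were lower and 1 higher, beside 44.8% and 1.14% of all genes. The members had a median of −0.07 where all genes had −1.004, and the odds of PHGDH, PSPH, SHMT2 and MTHFD2 had log2 fold changes between −0.14 and 0.28, none of which passed. The rise of PSAT1 did not pass without DMSO replicate 1, DMSO replicate 2 or C646 replicate 1 (adjusted p between 0.0193 and 0.0441, log2 fold change between 0.65 and 0.72).

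**Figure D4:**
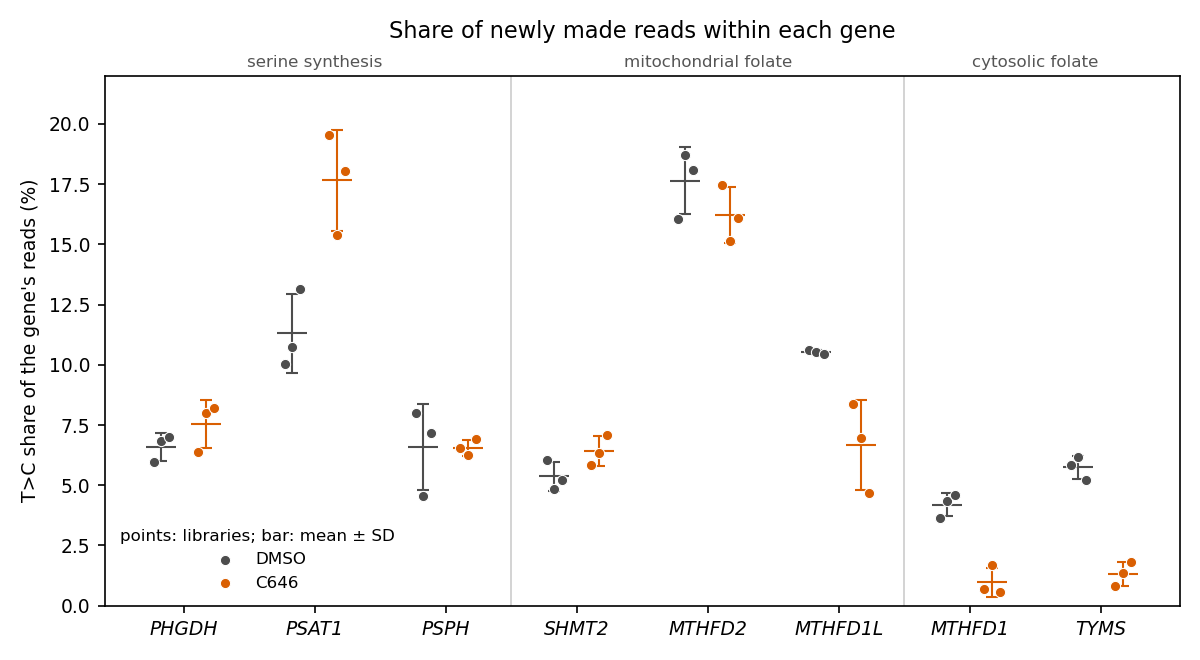
T > C share of each enzyme's reads in percent, with a point for each of 3 DMSO and 3 C646 libraries and a bar for the mean ± SD. The share of PSAT1 was 11.3% ± 1.64 in DMSO and 17.7% ± 2.09 in C646, while MTHFD1 (4.20% ± 0.491 to 0.978% ± 0.604) and TYMS (5.75% ± 0.480 to 1.31% ± 0.499) came down to near the axis.

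Conversions per 100 covered T allow for the number of T that the reads of a gene cross, so that members can be ordered by them. In DMSO the order was MTHFD2 (1.03 ± 0.108, SD, n = 3), MTHFD1L (0.859 ± 0.0497), PSAT1 (0.771 ± 0.0544), PHGDH (0.581 ± 0.0492), SHMT2 (0.426 ± 0.0218), PSPH (0.421 ± 0.139), TYMS (0.395 ± 0.0512) and MTHFD1 (0.281 ± 0.0203). Neighbours overlapped between MTHFD1L and PSAT1, between SHMT2 and PSPH and between PSPH and TYMS. The median of all genes was 0.912, above all members but MTHFD2, and MTHFD1 was higher than 7.24% of the genes. In C646 the order began with PSAT1 (1.07 ± 0.111) and MTHFD2 (0.866 ± 0.0822) and ended with TYMS (0.0548 ± 0.0282) and MTHFD1 (0.0418 ± 0.0313), which were above 1.91% and 1.05% of all genes. The C646 libraries of TYMS and MTHFD1 overlapped, so that their order is not settled, while those of PSAT1 and MTHFD2 did not. The median of all genes in C646 was 0.416.

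By this measure MTHFD1L, TYMS and MTHFD1 were lower in every C646 library than in any DMSO library, 3 of 8 members beside 65.6% of all genes. PSAT1 and SHMT2 were higher in every C646 library, 2 of 8 members beside 1.69% of all genes. SHMT2 had 0.450, 0.423 and 0.407 conversions per 100 covered T in DMSO and 0.544, 0.558 and 0.558 in C646, with less spread in C646. For these 5 members the two-sided exact permutation test gave p = 0.1, the smallest that 3 libraries against 3 allow, and 0.16 after Benjamini-Hochberg adjustment over the 8 members. For MTHFD2, PHGDH and PSPH the exact permutation test gave p = 0.2, 0.6 and 0.7. The T > C reads that MTHFD1 and TYMS still had in C646 carried few conversions, 1.35 ± 0.303 and 1.38 ± 0.217 each, against 2.21 ± 0.197 and 2.29 ± 0.341 in DMSO (SD, n = 3). This was not particular to them. The number also came down without overlap for PHGDH (1.78 ± 0.0484 to 1.39 ± 0.118) and MTHFD2 (2.56 ± 0.0449 to 2.36 ± 0.116). For the other members tested the groups overlapped, and no value for all genes is given here.

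Ratios of a mitochondrial folate enzyme to MTHFD1 within a library need no scaling, and both ratios below share MTHFD1 as their denominator. In T > C reads MTHFD1 fell by −2.37 on the log2 scale, against a median of −0.83 for all genes. A gene at that median would thus also rise against MTHFD1, and MTHFD1L, at −0.92, was close to it. MTHFD1L, which makes formate in mitochondria, had 1.26, 1.015 and 0.891 T > C reads for each T > C read of MTHFD1 in DMSO and 5.00, 1.93 and 2.84 in C646. The C646 libraries were all above the DMSO libraries, by 1.53 on the log2 scale or 2.89-fold (two-sided exact permutation test, p = 0.1, also adjusted over the 2 ratios). This ratio sums the proximal and distal entries of MTHFD1L, and with the distal entry alone, the one with the most reads, the difference was 1.97. MTHFD2 had 3.88, 3.31 and 3.95 T > C reads for each of MTHFD1 in DMSO and 39.8, 15.0 and 35.0 in C646, a difference of 2.90 on the log2 scale or 7.45-fold (two-sided exact permutation test, p = 0.1). In all reads the ratio of MTHFD1L to MTHFD1 differed by 0.0064 on the log2 scale (two-sided exact permutation test, p = 1) and that of MTHFD2 to MTHFD1 by 0.80 (p = 0.1).

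The neighbouring enzymes and carriers were counted over 6 lists with 61 genes. Of the folate list, 10 of 17 genes were tested in T > C reads, where 2 were lower, 1 was higher and 7 did not pass, beside 38% of all genes lower and 3.83% higher. The list had a median log2 fold change of −0.45, against −0.83 for all genes. SLC19A1, the reduced folate carrier, fell from 23, 11 and 16 T > C reads in DMSO to 1, 2 and 1 in C646 (log2 fold change −3.59 ± 0.73, edgeR, adjusted p = 0.000152). SLC25A32, which carries folate into mitochondria, fell by −2.16 ± 0.21, and MTHFS, which returns 5-formyltetrahydrofolate to the active pool, rose by 1.92 ± 0.38. All 3 also passed when scaled by TMM on the T > C reads. In all reads MTHFS rose by 1.00 ± 0.17 (edgeR, adjusted p = 0.000789), and neither carrier passed.

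Of the thymidylate and deoxynucleotide enzymes, which work beside TYMS, 8 of 9 were tested in T > C reads, and 5 were lower and 3 did not pass, beside 38% of all genes lower. RRM2, a subunit of ribonucleotide reductase, fell by −2.34 ± 0.19 on the log2 scale. DUT, which turns dUTP into the dUMP that TYMS methylates, fell by −0.72 ± 0.22. TK1, the thymidine salvage kinase, fell by −2.22 ± 0.60 and DTYMK, which phosphorylates the thymidylate that TYMS makes, by −1.20 ± 0.34. The list had a median of −0.78, near the −0.83 of all genes, and 1 of the 5, RRM2, passed when scaled by TMM on the T > C reads. All 9 were tested in all reads, where the smallest adjusted p was 0.0151 (edgeR).

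Of the methionine cycle, 7 of 13 genes were tested in T > C reads, and 2 were lower and 1 higher, with a median log2 fold change of −0.78 and beside the same shares of all genes. MTR, the methionine synthase that takes its methyl group from folate, fell by −1.48 ± 0.33. MAT2A, which makes S-adenosylmethionine, fell by −1.19 ± 0.19, with 74.1% of its reads multimapped, and neither passed when scaled by TMM on the T > C reads. On that scale the count of the list turned to 3 higher (AHCYL1, MAT2B and CTH), beside 11.5% of all genes, and the first 2 of these names were chosen after their values were seen. CTH, which completes cysteine synthesis from serine and homocysteine, had 1, 0 and 8 T > C reads in DMSO and 17, 32 and 25 in C646. It counts as the 1 higher gene but met the filter on low counts only through the C646 libraries. Its call, on either scale, is therefore not read as a result. The T > C odds of CTH did not pass (edgeR, adjusted p = 0.0768). Of the serine transport and use list, 4 of 7 genes were tested, with a median of −0.95, and 2 fell beside 38% of all genes, the amino acid transporters SLC1A4 (−1.14 ± 0.28) and SLC1A5 (−0.94 ± 0.22). Of the glycine cleavage list, 2 of 4 were tested and GCSH fell by −1.54 ± 0.42, with 92.7% of its reads multimapped. The falls of SLC1A4, SLC1A5 and GCSH did not pass when scaled by TMM on the T > C reads.

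ATF4, a transcription factor of the amino acid response, is known to activate the serine synthesis and mitochondrial folate genes. Of ATF4 and 10 of its target genes, 9 were tested in T > C reads, and 1 was lower, 4 higher and 4 not passed, beside 38% of all genes lower and 3.83% higher. The list had a median log2 fold change of 0.79 in T > C reads but of −0.77 in the T > C odds, where all genes had −1.004. ATF4 itself fell by −0.84 ± 0.15 (edgeR, adjusted p = 3.75e-05), close to the median of all genes, and was 0.0018 when scaled by TMM on the T > C reads. DDIT4, CHAC1, DDIT3 and CEBPB rose by 2.82 ± 0.19, 2.06 ± 0.27, 0.99 ± 0.23 and 0.79 ± 0.24 on the log2 scale. With TMM on the T > C reads, 6 of the 9 were higher, beside 11.5% of all genes, and ATF4 no longer passed. In all reads 5 of the 9 were higher, beside 9.81% of all genes. In the T > C odds 1 of the 9 was lower, ATF4, beside 44.8% of all genes.

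**Figure D5:**
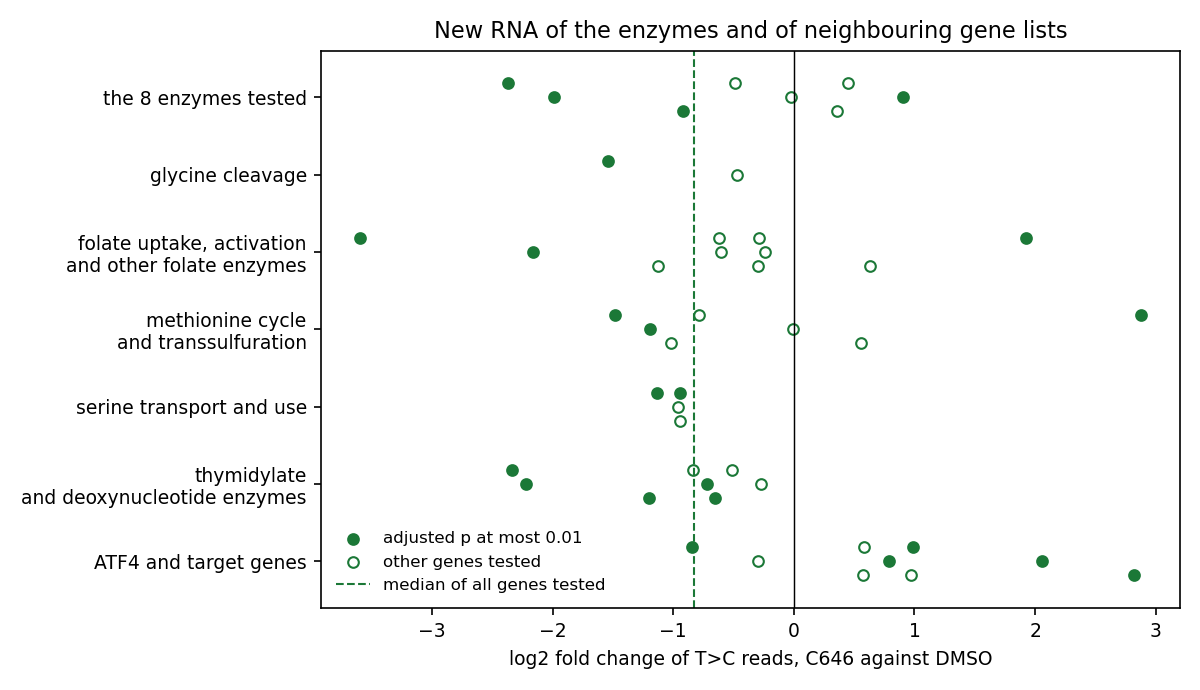
Change of T > C reads on the log2 scale (C646 against DMSO, 3 libraries each) for every tested gene of the enzymes and of the 6 neighbouring lists, with filled points for an adjusted p of at most 0.01 and a dashed line at the median of all genes tested, −0.83. The thymidylate and deoxynucleotide enzymes lie between −2.34 and −0.27, and DDIT4 is at 2.82 in the list of ATF4 and its targets.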

How the data were processed

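MOLM-13 cells were treated and labelled as described above, and 3′ end libraries were prepared with the QuantSeq FWD kit. Alignment to GRCh38 and counting were done by the authors in SLAM-Dunk v0.4.1. Their deposited tables, 1 for each library, give raw counts of reads, T > C reads, conversions and multimapped reads for every 3′ UTR entry. The deposited T > C counts include reads with a single conversion, whereas the study's own test took reads with more. The authors also deposited, as a signal, the coverage summed over T positions, and a CPM column scaled to the filtered reads of the library, which was used here only to recover that total. The base caller CASAVA 1.9 is named in the submitters' notes. In the table of C646 replicate 3 every entry has 0 for the number of T, which was therefore taken from the other tables.

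Counts were summed over the entries of a gene, and 25310 of 25420 Entrez identifiers (99.6%) were matched to a symbol. All 12 entries of the members lie on UTRs of the same gene in GENCODE release 44. T > C reads and all reads were tested with edgeR 4.0.16 in R 4.3.3 (filterByExpr, glmQLFit, glmQLFTest, Benjamini-Hochberg adjustment over all genes, passed at 0.01). All reads of a library, scaled by TMM, set its size in both tests and in the CPM. For the T > C odds, the model held both classes of reads, the library, the class and the interaction of class with treatment. Ratios were tested on the log2 scale with a pseudocount of 0.5. The fits were checked on simulated counts with the same dispersion for every gene and without the fall of most genes seen here. In simulated T > C reads, 47 of 50 genes set to 0.25 of their level were recovered, and 25 of 50 set to 0.5. Of genes raised 2-fold and 4-fold, 35 of 50 and 50 of 50 were recovered. Changes of 2-fold were thus often missed even there. Between libraries of a group, chi-square over degrees of freedom was 7.87 to 27.7, and the precision per gene rests on the spread between libraries as well as on its reads, and a count of 0 allows up to 3.

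The alternatives were other library sizes, DESeq2 1.42.0, no filter or a mean of at least 50 T > C reads, the entry with the most reads, an adjusted p of 0.05, a replicate block and each library left out. The shares and separate fits of the MTHFD1L entries, and T > C reads scaled to all filtered reads, were added after seeing the data. The members and the lists were chosen with earlier results of these data known. All members are named, of each list the genes that passed in T > C reads (at most 4 in each direction, by size), and for each member the gene with the nearest pattern. No library was left out of the tests.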

Additional observations from a re-analysis of the deposited data

How the results depend on the processing

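The changes of MTHFD1 and TYMS in T > C reads passed under every alternative run that tested them (MTHFD1 had too few for a mean of 50), whereas those of PSAT1 and MTHFD1L in T > C reads and of MTHFD2 in all reads each rest on a margin that single libraries decide, as given above. Over 376 values of single members under the alternatives, 328 kept direction and call, 18 kept direction but lost the call, 10 gained a call and 20 turned direction. Depth limits the members with few T > C reads, such as MTHFD1 with 8 to 22 and TYMS with 12 to 38 per C646 library and PSPH with 18 to 39 in any library, and SHMT1 had none. The cause of the differences between settings was not tested.

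Gene counts in this section are at the study's cutoffs, which also ask for a log2 fold change of at least 1 in size. Member counts take the adjusted p alone. Among the alternatives, the share of all genes by the members' rule is given for TMM on the T > C reads only. With that scaling, 602 genes were lower and 706 higher, against 2548 and 229. By the adjusted p alone 2 members were lower and 3 higher, beside 9.21% and 11.5% of all genes. PHGDH turned to 0.36 and PSPH to 0.82. A mean of at least 50 T > C reads left 2843 genes to test, of which 1038 were lower and 125 higher. The totals of all filtered reads, of which 49.7% to 51.6% lay on 3′ UTRs in DMSO and 56.3% to 62.0% in C646, moved log2 fold changes by a median of 0.21. With them 2 members were higher in T > C reads, PSPH turned to 0.18 in T > C reads and to 0.18 in all reads, and 90 genes were lower and 1014 higher in all reads, against 204 and 639. An adjusted p of 0.05 gave 2 members higher in T > C reads and 1 lower in all reads, and no filter also gave 1 lower in all reads. On the entry with the most reads, MTHFD1L turned to 0.06 in all reads.

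With a replicate block, 1 member passed as lower in all reads, PHGDH (−0.67, edgeR, adjusted p = 0.000559), and the log2 fold change of PSPH was 0.00029 in T > C reads and 0.0083 in the odds. The other calls of members were unchanged by the block. Same-numbered DMSO and C646 libraries deviated from their group means with correlations across genes of 0.030 to 0.065 in T > C reads and −0.0014 to 0.23 in all reads. Their means were 0.046 and 0.12, against −0.023 and −0.064 for libraries of different number. In T > C reads 6 of 6 libraries correlated best with their own number, and in all reads 3 of 6. The correlations were low and do not settle whether the numbers are pairs. The labels do not say, and the main tests took no pairs. The call of PHGDH in all reads depends on this choice.

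Without any 1 library, 0 to 1 members were higher in T > C reads, in all reads and in the odds, 0 to 1 lower in all reads and 2 to 3 lower in T > C reads and in the odds. In all reads 120 to 321 genes were lower, the fewest without DMSO replicate 2 and the most without C646 replicate 1. The change of PSPH ranged from −0.21 to 0.13 in T > C reads, from −0.10 to 0.028 in all reads and from −0.23 to 0.18 in the odds. Conversions per 100 covered T differed by −0.0910 to 0.0090 for PHGDH and by −0.107 to 0.0597 for PSPH.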

Other observations

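For each of the 8 members tested, the gene with the most similar T > C pattern was looked up among 2833 genes whose mean over libraries was 50 or more T > C reads. Likeness was the Euclidean distance over the 6 libraries between log2(CPM + 0.5) values centred on the DMSO mean, so that a small distance means a similar change and a similar scatter of the libraries. The closest pair was TYMS with NFIL3, a bZIP transcription factor, at 0.0922, with log2 fold changes of −1.99 and −1.93. PHGDH was nearest to TRMT5 (0.151), MTHFD1L to FOXO3 (0.214), MTHFD2 to MAPK1IP1L (0.235), SHMT2 to TALDO1 (0.251) and PSPH to CCT2 (0.262). MTHFD1 and PSAT1 had no near neighbour, with ARHGDIA at 0.457 and SNAP23 at 0.514. The lists are long and the libraries few, and nothing on shared function or control follows from these distances.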
